A study of Mus musculus with 36 samples.

Results

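The complement and coagulation genes are 40 genes for secreted complement, clotting and fibrinolysis proteins. They were taken by gene symbol from the count tables of a mouse liver regeneration series, 40 of 21955 rows, without use of their measured values. Total RNA depleted of ribosomal RNA was sequenced from frozen liver of C57BL/6JN mice, a common inbred strain, at 2 ages: young (4 months) and old (18 months). Each age was sampled at time points labelled before, 48, 72, 96, 120 and 240, with 3 libraries per group and 36 in all. The labels give neither the unit of these numbers nor how regeneration was induced, and no genotype or drug treatment is named for any group. The labels call the 3 libraries of a group biological replicates and name no animal, so a p-value rests on the spread between libraries. That spread was estimated within groups over all 36 libraries together. A library outside a comparison can therefore change its calls.

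The liver makes most of the complement and clotting proteins of the blood, and hepatocytes are their main source. In the complement cascade, recognition molecules of the classical and lectin pathways activate proteases that cut C4 and C2, these activate C3, and the terminal components assemble into a pore in the target membrane. In clotting, the contact phase and vitamin K-dependent enzymes lead to thrombin, which cuts fibrinogen into fibrin, anticoagulants hold this in check, and plasmin dissolves the clot. Several of these proteins, fibrinogen and C3 among them, are acute-phase proteins whose genes respond to interleukin-6 in hepatocytes.

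All 40 genes passed the filter on low counts, which kept 13436 genes. Levels are given as CPM, read counts scaled to a common library total by TMM, edgeR's scaling. Total counts per library ranged from 2328233 to 6034446 (median 4439000), and the lowest count of any of the 40 genes in any library was 25, for C6 in 1 old library at 48. The summed counts of the 40 genes made up 3.56% to 7.62% of a library's total, with a median of 5.01%. All 12 hepatocyte markers, such as albumin and transthyretin, were present, with a summed level of 43580 to 73460 CPM. Per kilobase of exon, the highest mean levels in young livers before were those of Fga (2529 CPM per kb), Vtn (1677), C3 (1230), Fgg (1036) and Fgb (964.8). The lowest were those of Masp1 (11.2 CPM per kb), Cpb2 (16.2) and C6 (19.4). In old livers before, Fga was again the highest (2622 CPM per kb) and Masp1 the lowest. Over all 18 comparisons described here, 16 of the 40 genes were called at least once (40% of the 40, against 45.9% of all genes tested) and 24 never.

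A single library stood apart from the rest. In replicate 2 of old mice at 48, 28 of the 40 genes had their lowest and 5 their highest level of all 36 libraries. Over all genes tested, that library held the lowest level of 15.8% and the highest level of 15.4%. For each library, the distance of each gene from the mean of the other libraries of its group was taken. Its median over the 40 genes was 1.22 on the log2 scale there, and at most 0.595 in any other library. That 0.595 was in replicate 3 of the same group, whose comparison includes replicate 2. Its total count (4909023) was close to those of the other old libraries at 48 (4792837 and 4793760). Every count for old mice at 48 is therefore also given without it. A second split ran through every group: in 12 libraries, 1 per group, Y-linked transcripts reached 177 to 321 CPM, and in the other 24 they were at most 0.212 CPM. The labels name no sex. The split is balanced over the groups. A fit without those 12 libraries, an alternative chosen after seeing the data, is described after the counts of calls.

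In the fit of all libraries, few of the 40 genes changed against before in young livers and more did in old livers at 48. By edgeR's quasi-likelihood test at an adjusted p under 0.05, 3 genes changed in young mice at 48 (7.5% of the 40, 1 higher and 2 lower), against 21.9% of all genes tested (12.2% higher and 9.79% lower). At 72 there were 6 (15% of the 40, 3 higher and 3 lower), against 17.4% of all genes (9.21% higher and 8.21% lower). Without replicate 1 or 2 at 72, which stood apart in their cell type markers, 2 genes were called. The median log2 change of the 40 was -0.026 at 48 and -0.12 at 72, against -0.011 and 0.014 over all genes. In old mice at 48, 15 genes changed (37.5% of the 40, 7 higher and 8 lower), against 24.1% of all genes (12.1% higher and 12% lower), and the median of the 40 was -0.27 against 0.010. In bulk tissue, fewer cells of a type and less RNA per cell cannot be told apart. Without replicate 2 of that group, 8 of the 40 were called (5 higher), against 16.8% of all genes, and a fit of only the 6 libraries compared called 0. In young mice at 48 the fit without that library called 11 of the 40 (24.6% of all genes). Fits of only the groups compared also called more of the 40 in young than in old mice at 48. The order of the ages at 48 was thus reversed in both settings. Of the 15 genes, C8g and Proc had also fallen in young mice at 48, and Proc was no longer called in old mice without that replicate.

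**Figure D1:**
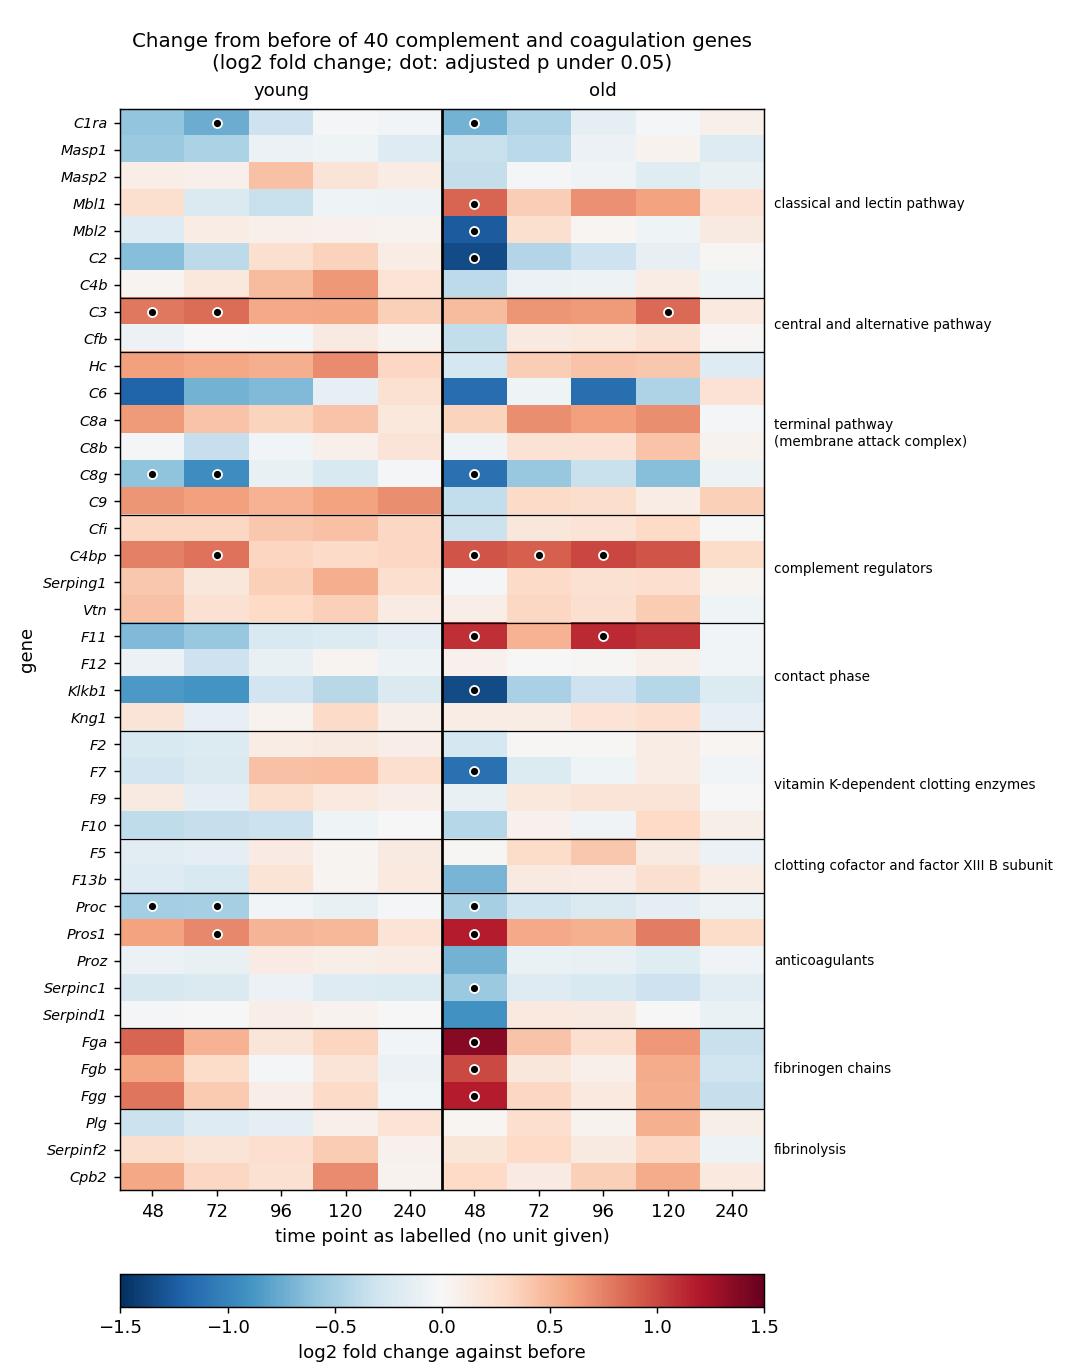
Log2 fold change against before (colour) of the 40 genes, grouped by role (rows), at each later time point in young and old mice (columns); dots mark an adjusted p under 0.05. Most dots lie at 48 and 72, with 15 in the column of old mice at 48 and 0 in both columns at 240.

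Later time points gave few calls in either age. In young mice 0 of the 40 genes were called at 96, 120 and 240, where 1.4%, 0.581% and 0.246% of all genes were. At an unadjusted p under 0.05 there were 3, 4 and 0, against 2054, 1606 and 687 of all 13436 genes, and DESeq2 called 0 at each. In old mice C4bp alone was called at 72 (12.4% of all genes), C4bp and F11 at 96 (6.82%), C3 at 120 (3.87%) and 0 genes at 240 (0.156%). At 240, 0 of the 40 had an unadjusted p under 0.05, against 1031 of all 13436 genes, and DESeq2 called 0. In the fit without replicate 2 of old mice at 48, 4 genes were called in old mice at 72 (15.4% of all genes) and 5 at 120 (6.35%), and 11 in young mice at 48 (24.6%). The 4 were C3, C8g, C4bp and Pros1, and the 5 were these and F11. In young mice at 48, C3, Hc, C4bp, Pros1, Fga and Fgg were higher and C1ra, C2, C8g, Klkb1 and Proc lower. Scaling by total counts put the median log2 change of all genes at 0.211 in young mice at 72, 0.127 at 96 and 0.103 at 120, and at 0.111 in old mice at 72, so changes here are relative to the bulk of genes. With that scaling the 6 genes called in young mice at 48 were all higher, so that the falls of C8g and Proc there were not called, and at 72 there were 3 higher and 1 lower.

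Leaving out the 12 libraries with Y-linked transcripts left 2 libraries per group and ended several of the calls described below. In young mice at 48 it called 1 of the 40 genes (12% of all genes), without C8g (log2 -0.63; adjusted p 0.0531) and Proc (-0.43; adjusted p 0.237). At 72 it called C1ra and C8g (14.8% of all genes), without C3 (0.66; adjusted p 0.0741), C4bp (0.71; adjusted p 0.143), Proc (-0.61; adjusted p 0.0793) and Pros1 (0.61; adjusted p 0.256). Each of these kept the direction it had with all libraries. In old mice at 48 it called 9 genes (20.8% of all genes). Not called there were C1ra (-0.68; adjusted p 0.0808), Mbl2 (-1.12; adjusted p 0.103), C4bp (0.84; adjusted p 0.0711), Klkb1 (-1.27; adjusted p 0.188), Proc (-0.59; adjusted p 0.0725) and Serpinc1 (-0.68; adjusted p 0.0651). The fibrinogen chains, Pros1, C2 and C8g were among the 9. At 96 it called Mbl1 and F11 (3.59% of all genes) but not C4bp (1.12; adjusted p 0.0615).

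**Figure D2:**
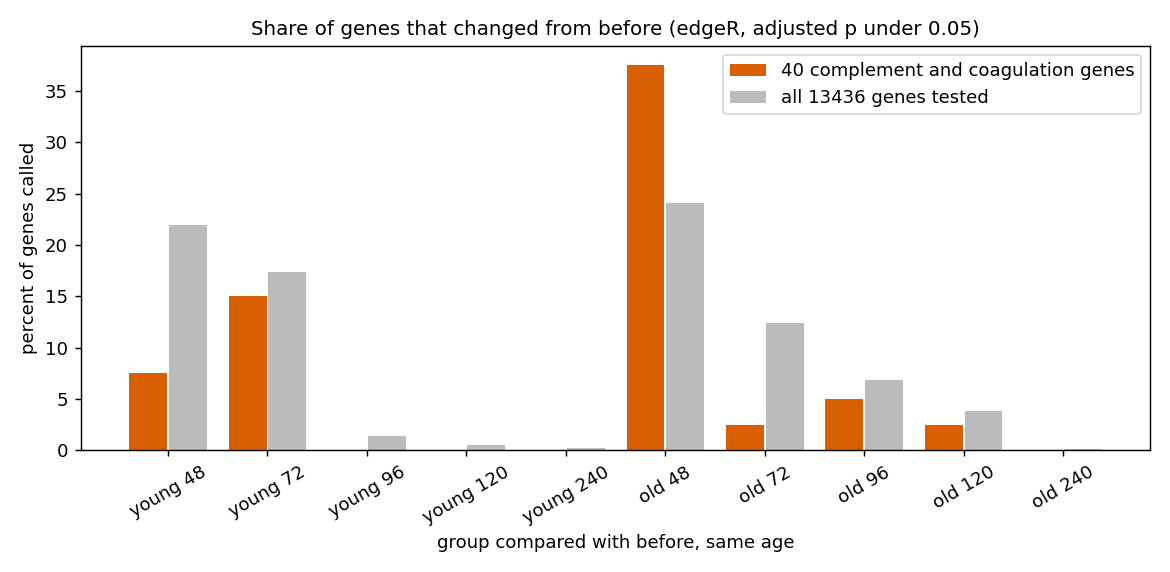
Percent of genes called against before in each group of age and time point (edgeR, adjusted p under 0.05), for the 40 complement and coagulation genes and for all 13436 genes tested. The share of the 40 exceeds that of all genes only in old mice at 48 (37.5% against 24.1%).

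Fibrinogen, the soluble precursor of the fibrin clot, is built from 3 chains encoded by Fga, Fgb and Fgg, which lie side by side on chromosome 3. All 3 rose in old mice at 48. Fga was at 10070, 7037 and 6571 CPM in the old libraries before and at 17430, 27340 and 16160 CPM at 48. The groups did not overlap, and Fga was 2.57-fold higher (log2 fold change 1.36 ± 0.33, SE; adjusted p 0.00411). The call held whichever single library was left out, with a log2 change between 1.12 and 1.61. Fgb rose 1.99-fold (0.99 ± 0.29; adjusted p 0.0130) and Fgg 2.25-fold (1.17 ± 0.31; adjusted p 0.00758). Both calls were lost without replicate 2 of old mice at 48, with adjusted p up to 0.0756 for Fgb and 0.0591 for Fgg, and that of Fgb also without replicate 2 or 3 before.

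In young mice Fga was at 7280, 7743 and 7815 CPM before and at 11250, 14450 and 16100 CPM at 48. These groups did not overlap either, but the 3 chains did not pass the test there, with a median log2 change of 0.80. Without replicate 2 of old mice at 48, Fga and Fgg were among the 11 genes called in young mice. By 72 the young libraries had spread to 8653, 7584 and 16610 CPM of Fga, overlapping those before. At 120, replicate 2 of old mice held 21250 CPM of Fga against 9772 and 6034 CPM in the others. At 240 Fga was at 5977, 6484 and 6267 CPM in old and at 6836, 6567 and 8848 CPM in young mice.

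The chains moved together across libraries. The ratio of Fga to Fgg lay between 3.02 and 4.45 in all 36 libraries, with an SD of 0.135 on the log2 scale, while Fga alone had an SD of 0.550 and Fgg of 0.505. The ratio of Fgb to Fgg ranged from 1.30 to 1.90 (SD 0.107). The chains made up 71.3% of the summed level of the 40 genes in replicate 2 of old mice at 48, and between 25.4% and 45.0% in the other 35 libraries. In that library Fga, Fgb and Fgg were at their highest of all libraries, together with F11 and Pros1.

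Because the chains rose together, the bases before their start sites are shown, from RefSeq's promoter table (build GRCm38.p6), 5′ to 3′ on the strand of each gene. Fga is given from chr3:83025903-83026075 (plus strand), Fgb from chr3:83049864-83050113 (minus strand) and Fgg from chr3:83007474-83007723 (plus strand). Fga stops at the gene start of the GENCODE M21 annotation, which lies 77 bases before RefSeq's. Capitals mark matches to a C/EBP-type motif (TTNNGNAA) or a STAT-type motif (TTCNNNGAA), searched on both strands, which are bound by factors of the acute-phase response.
Fga: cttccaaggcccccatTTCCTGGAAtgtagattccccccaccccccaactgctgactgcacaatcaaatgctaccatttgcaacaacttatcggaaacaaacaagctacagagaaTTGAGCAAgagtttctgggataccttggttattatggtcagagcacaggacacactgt
Fgb: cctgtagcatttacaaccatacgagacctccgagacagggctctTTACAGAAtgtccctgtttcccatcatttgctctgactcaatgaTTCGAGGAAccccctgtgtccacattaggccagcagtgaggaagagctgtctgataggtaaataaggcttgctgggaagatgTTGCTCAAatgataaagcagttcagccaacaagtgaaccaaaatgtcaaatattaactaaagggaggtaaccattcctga
Fgg: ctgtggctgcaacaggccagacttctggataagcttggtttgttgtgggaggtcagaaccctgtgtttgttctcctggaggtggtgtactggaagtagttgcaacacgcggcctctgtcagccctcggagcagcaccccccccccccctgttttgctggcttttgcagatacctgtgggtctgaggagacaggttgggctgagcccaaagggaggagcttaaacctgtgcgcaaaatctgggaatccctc
Fga and Fgb held matches to both motifs and Fgg to neither. In the 250 bases before the start, a STAT-type match was present in 18.8% of the 32 entries for 31 of the 40 genes and in 7.02% of all 32851 entries. The 6 with a match were C8a, F9, Fga, Fgb, Masp2 and Pros1. For the C/EBP-type motif the shares were 43.8% and 36.8%. The HNF1-type motif, GTTAAT and ATT with 1 base between them, is named for a hepatocyte factor and was present in C4bp, F13b and Hc, 9.38% of entries against 0.371% of all, and the HNF4A-type motif CAAAGTCCA in 0 against 0.384%. A match is a run of letters and was not tested for binding. Masp1, C2, C4b, Cfb, Cfi, Serping1, Kng1, Proc and Plg had no entry matched.

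C3 is the component on which all complement pathways converge, and C4bp is the α chain of C4b-binding protein, which limits the classical and lectin pathways. C3 rose in young mice at 48 and 72. It was at 5055, 7134 and 6786 CPM before, at 12660, 11110 and 9036 CPM at 48 and at 11390, 10330 and 12160 CPM at 72. Every library at 48 and 72 lay above every library before. The mean was higher by 1.73-fold at 48 (log2 0.79 ± 0.24; adjusted p 0.0174) and 1.78-fold at 72 (0.84 ± 0.24; adjusted p 0.0160). The call at 48 was lost without young before replicate 1 or young 48 replicate 1 (adjusted p up to 0.0991), and that at 72 without young before replicate 1 (adjusted p 0.0934). In old mice C3 was at 5860, 7799 and 6720 CPM before, at 11710, 6672 and 9904 CPM at 48 and at 12570, 15630 and 8480 CPM at 120. It was at 9674, 12560 and 10000 CPM at 72 and at 11430, 8329 and 12010 CPM at 96. Every old library at 72 and 96 lay above every old library before, but neither time point passed the test with all libraries. The rise was called at 120 (1.80-fold; log2 0.85 ± 0.24; adjusted p 0.0423), where the groups did not overlap. It was lost without any of the 3 old libraries before or without replicate 1 or 2 at 120, with adjusted p up to 0.162. At 48 it was called once replicate 2, which lay within the range before, was left out (log2 0.70; adjusted p 0.0450). In that fit C3 was also called in old mice at 72.

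C4bp rose in old mice at 48, 72 and 96 and in young mice at 72. In old mice it was at 340, 212 and 169 CPM before, at 715, 168 and 506 CPM at 48, at 422, 494 and 426 CPM at 72 and at 629, 385 and 434 CPM at 96. At 48 replicate 2 lay just under the lowest library before, while at 72 and 96 the groups did not overlap. The log2 change was 0.95 ± 0.29 at 48 (adjusted p 0.0189), 0.90 ± 0.29 at 72 (adjusted p 0.0418) and 1.00 ± 0.29 at 96 (adjusted p 0.0350). Without replicate 2 at 48 the change there was 1.37 (adjusted p 0.000166). Each call was lost without old before replicate 2 or 3, the one at 48 also without its replicate 1, the one at 72 without any library of that group and the one at 96 without its replicate 1, with adjusted p up to 0.231, 0.198 and 0.206. In young mice C4bp was at 240, 216 and 273 CPM before, at 439, 402 and 390 CPM at 48 and at 396, 397 and 493 CPM at 72. Every young library at 48 and 72 exceeded those before. The rise in young mice at 48 was called without replicate 2 of old mice at 48, but not with all libraries. With all libraries only 72 passed (log2 0.82 ± 0.29; adjusted p 0.0497), a call lost in 31 of the 36 fits that left out 1 library, with adjusted p up to 0.146. It held without old before replicate 1 or 3, old 48 replicate 1 or 2, or old 96 replicate 1. The other regulators, Cfi, Serping1 and Vtn, and factor B (Cfb) of the alternative pathway were called at no time point in either age.

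**Figure D3:**
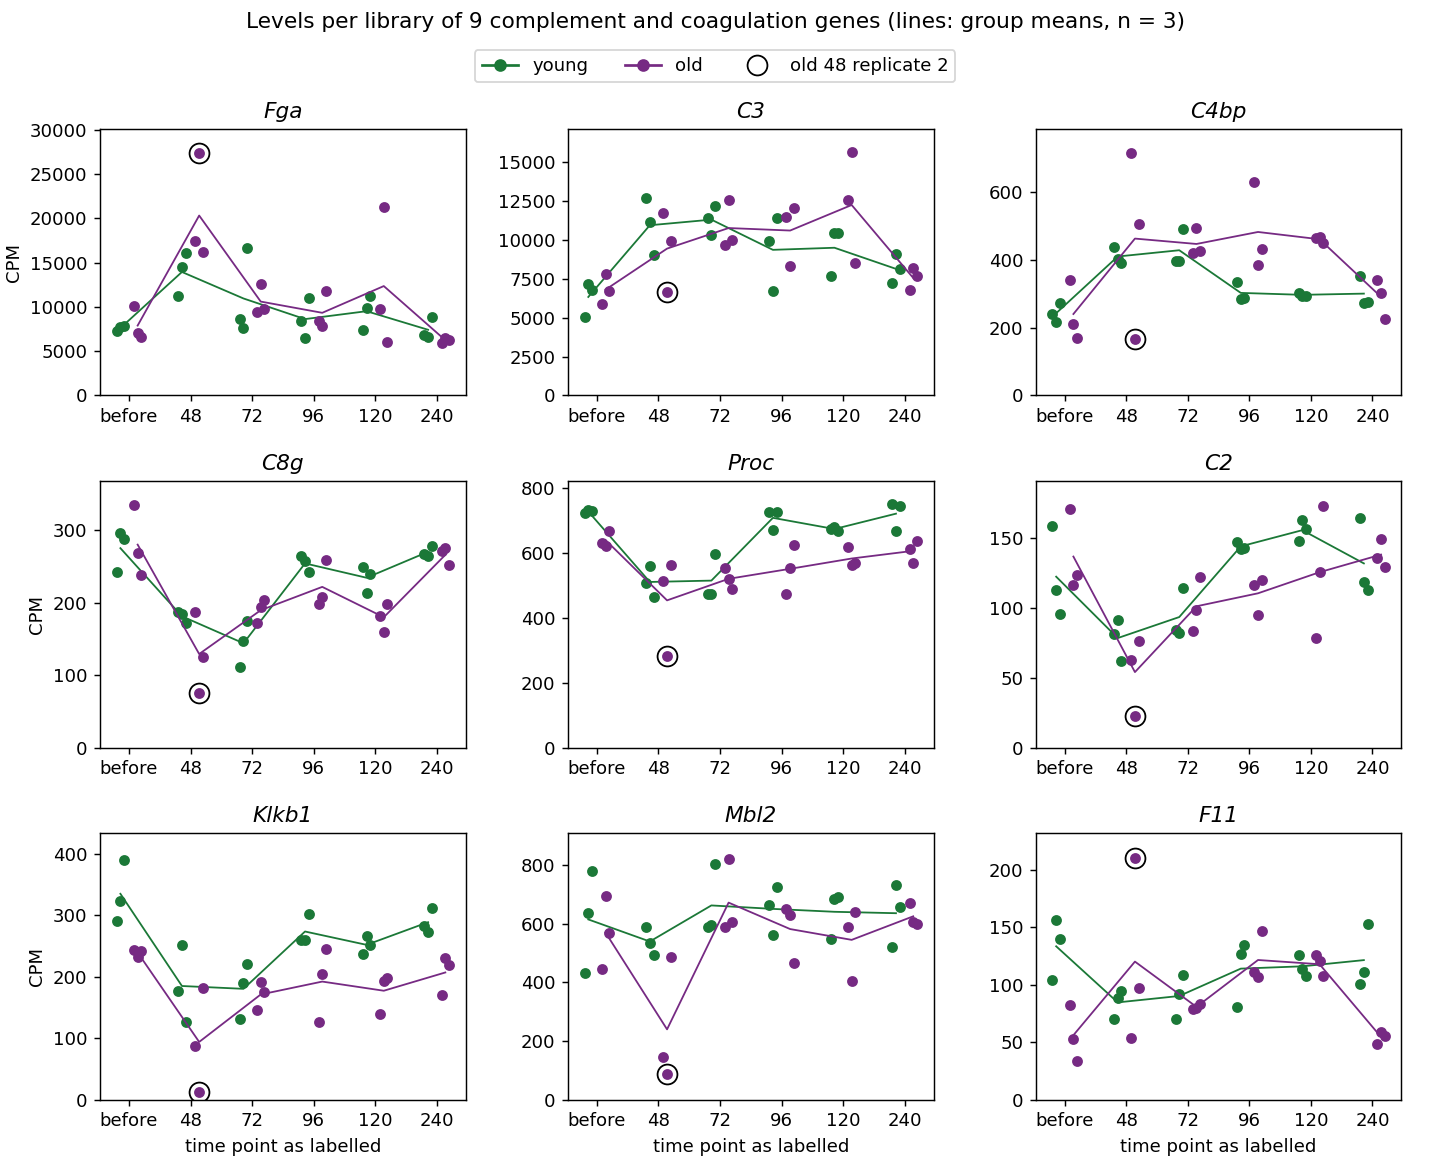
CPM of 9 genes in every library at each time point, young in green and old in purple, with lines through the group means (n = 3) and replicate 2 of old mice at 48 circled. The circled library holds the highest Fga (27340 CPM) and F11 (210 CPM) and the lowest C8g (75.6 CPM), C2 (22.9 CPM), Klkb1 (13.2 CPM) and Mbl2 (88.3 CPM) of all 36.

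Of the 7 genes of the classical and lectin pathways, 4 changed in old mice at 48, where 24.1% of all genes did, and without replicate 2 of that group Mbl1 and C2 remained called. C2, the protease that together with C4 forms the C3-cleaving enzyme, fell. It was at 171, 116 and 124 CPM before and at 62.7, 22.9 and 76.7 CPM at 48, with no overlap, 0.395 of the level before (log2 -1.34 ± 0.29; adjusted p 0.00156). The call held whichever library was left out, with a log2 change of -0.94 without replicate 2. In young mice C2 was at 159, 113 and 95.4 CPM before and at 81.7, 91.3 and 62.3 CPM at 48, which did not pass the test with all libraries. Without replicate 2 of old mice at 48 this fall in young mice was called. C2 and Cfb lie 0.085 kb apart on chromosome 17 on the same strand, and how reads between them were assigned is not given in the sources used here. The ratio of C2 to Cfb ranged from 0.0269 to 0.0937 over the libraries.

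The mannose-binding lectins Mbl1 and Mbl2, which recognise sugars on microbes, moved in opposite directions in old mice at 48. Mbl1 rose from 77.7, 51.2 and 45.4 CPM to 123, 84.1 and 113 CPM, with no overlap (log2 0.87 ± 0.24; adjusted p 0.00886), a call lost without old before replicate 3 (adjusted p 0.06). Mbl2 was at 446, 694 and 569 CPM before and at 145, 88.3 and 487 CPM at 48. Replicates 1 and 2 fell below all libraries before and replicate 3 lay within them. The log2 change was -1.25 ± 0.35 (adjusted p 0.0108), a call lost without replicate 2 before or without replicate 1 or 2 at 48, with adjusted p up to 0.0730. C1ra, a protease of the C1 complex, fell in young mice at 72, from 294, 240 and 248 CPM to 122, 132 and 214 CPM (log2 -0.74 ± 0.25; adjusted p 0.0425). It fell by a similar amount in old mice at 48 (-0.71 ± 0.25; adjusted p 0.0415), where it changed by -0.37 without replicate 2 (adjusted p 0.284). The call in young mice was lost in 7 fits that left out 1 library, those without young before replicate 1, 2 or 3, young 72 replicate 1 or 2, young 120 replicate 1 or old before replicate 3 (adjusted p up to 0.197). The call in old mice was lost in 10, without young before replicate 3, young 48 replicate 1 or 3, young 96 replicate 1, young 120 replicate 1, any old library before, old 48 replicate 2 or old 72 replicate 1. C1ra and C4b have near-identical copies in the mouse genome, so that their counts are uncertain. Masp1, Masp2 and C4b, also of these pathways, were called in no comparison.

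The terminal pathway builds the membrane attack complex from C5 (Hc), C6, C7, the 3 subunits of C8 (C8a, C8b and C8g) and C9. Hc was called in young mice at 48 without replicate 2 of old mice at 48, but not with all libraries. With all libraries C8g, the γ subunit, was the only one of the 6 members to change, and it fell in young and in old mice. Young libraries held 243, 296 and 287 CPM before, 187, 185 and 172 CPM at 48 and 111, 147 and 174 CPM at 72. Neither later group overlapped those before, and the level was 0.658 of that before at 48 (log2 -0.60 ± 0.20; adjusted p 0.0273) and 0.523 at 72 (-0.94 ± 0.20; adjusted p 0.00193). The call at 72 held whichever library was left out, whereas that at 48 was lost without young before replicate 2 or 3 or any library at 48 (adjusted p up to 0.108). In old mice C8g was at 334, 268 and 238 CPM before and at 187, 75.6 and 125 CPM at 48, with no overlap (log2 -1.12 ± 0.20; adjusted p 0.000244), and this call held in all 36 fits that left out 1 library. By 240 C8g was at 268, 265 and 278 CPM in young and at 271, 276 and 252 CPM in old mice.

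C6, C8a, C8b and C9 did not pass the test at any time point, but their levels spread widely over the libraries. The highest level was 75.7 times the lowest for C8a, 37.3 times for C6, 19.7 times for C8b and 11.5 times for C9. Their values in single libraries were chosen for description after they had been seen. C6, which starts the assembly on C5b, was highest in the library with Y-linked transcripts in 12 of 12 groups. It was at 40.8 to 188.7 CPM (median 95.3) in those 12 libraries and at 5.06 to 36.5 CPM (median 19.2) in the other 24, so the ranges did not overlap. The mean log2 difference within a group was 2.16, with an SD of 0.46 over the 12 groups. Of all genes tested, 0.409% were highest in that library in 12 of 12 groups. C1ra was highest there in 10 groups (1.98% of all genes in 10 or more), and F7 was lowest in 10 groups (1.84%).

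C8a and C8b, the α and β subunits, lie 11.1 kb apart on chromosome 4. Each was highest in the library with Y-linked transcripts in 8 of 12 groups, which included before and 240 in both ages. C9 was highest there in 9 groups, with a mean log2 difference of 0.62. Shares over all genes were counted only for 10 groups or more. Before, C8a was at 1840 CPM in the old library with Y-linked transcripts and at 126 and 146 CPM in the others, and at 1536 CPM against 573 and 616 CPM in young mice. C8b was at 158 CPM against 14.5 and 15.3 CPM in old mice, and at 178 CPM against 100 and 103 CPM in young mice. At 72 C8a ranged only from 1051 to 1208 CPM over the 3 old libraries and C8b from 53.0 to 83.3 CPM. At 240 C8a was again higher in the old library with Y-linked transcripts, at 1065 CPM against 382 and 637 CPM. Replicate 2 of old mice at 48, which lacks these transcripts, held 24.3 CPM of C8a against 1221 and 1412 CPM in its group. In the 24 libraries without Y-linked transcripts, C8b rose in old mice at 72 (log2 2.2 ± 0.59; adjusted p 0.0325) and at 120 (2.45 ± 0.60; adjusted p 0.0250). These calls rest on 2 libraries per group. In that fit 8.96% of all genes were called at 72 and 7.11% at 120, where 9 of the 40 were called, all higher.

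**Figure D4:**
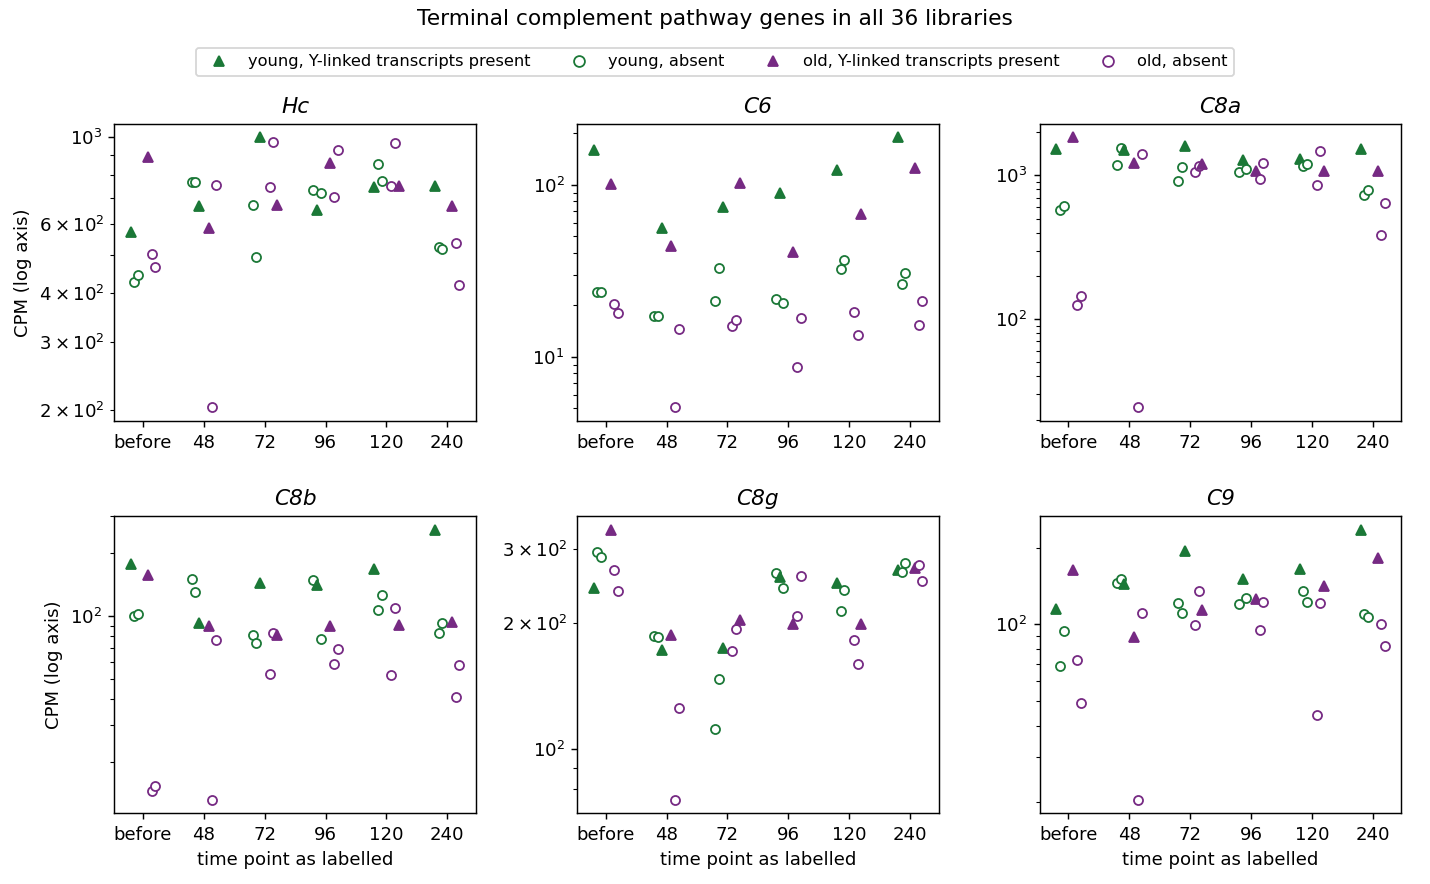
CPM (log axis) of 6 terminal pathway genes in all 36 libraries by time point, young in green and old in purple, with filled triangles for the 12 libraries with Y-linked transcripts and open circles for the other 24. The triangles of C6 lie above the circles of the same group at every time point. Those of C8a and C8b do so in 8 of 12 groups each, and those of C9 in 9. Those of C8g lie above the circles in 6 groups and below them in 3.

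The bases before the start sites of the genes with this split are shown for comparison, as RefSeq gives them on the strand of each gene: C6 from chr15:4726960-4727174 (plus strand, ending at GENCODE's gene start, 35 bases before RefSeq's), C8a from chr4:104876399-104876648 (minus strand) and C8b from chr4:104766067-104766316 (plus strand). Capitals again mark C/EBP-type and STAT-type matches.
C6: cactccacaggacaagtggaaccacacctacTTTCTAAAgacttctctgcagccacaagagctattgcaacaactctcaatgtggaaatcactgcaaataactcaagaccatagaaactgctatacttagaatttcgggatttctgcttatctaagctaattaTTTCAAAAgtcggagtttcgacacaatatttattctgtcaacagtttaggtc
C8a: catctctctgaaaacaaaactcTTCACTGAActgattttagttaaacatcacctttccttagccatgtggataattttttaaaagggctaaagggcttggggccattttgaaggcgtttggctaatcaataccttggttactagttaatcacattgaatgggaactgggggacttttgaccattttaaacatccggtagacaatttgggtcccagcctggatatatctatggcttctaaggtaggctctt
C8b: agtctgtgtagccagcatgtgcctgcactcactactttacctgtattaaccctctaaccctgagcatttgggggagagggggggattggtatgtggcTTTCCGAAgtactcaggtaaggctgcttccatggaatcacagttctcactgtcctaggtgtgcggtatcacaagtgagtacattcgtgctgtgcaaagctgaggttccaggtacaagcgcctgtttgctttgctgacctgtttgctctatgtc
C6 and C8b held C/EBP-type matches and C8a a STAT-type match, so the 3 shared neither motif as a group. The start sites of C8a and C8b lie at opposite ends of the pair, and the genes are transcribed towards each other.

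In the contact phase, F11 (factor XI) and Klkb1 (plasma prekallikrein) are neighbours of common origin, 4.66 kb apart on chromosome 8, and they went opposite ways in old mice at 48. Klkb1 fell from 244, 233 and 241 CPM to 88.0, 13.2 and 181 CPM, with no overlap, 0.393 of the level before (log2 -1.35 ± 0.43; adjusted p 0.0252). Without replicate 2 it changed by -0.80 (adjusted p 0.0445), and the call was lost without any of the 3 libraries before or without replicate 1 (adjusted p up to 0.0725). In young mice Klkb1 was at 291, 324 and 390 CPM before and at 177, 252 and 126 CPM at 48. It was not called in young mice with all libraries, but was called at 48 and 72 without replicate 2 of old mice at 48. F11 was at 82.7, 52.5 and 33.3 CPM in old mice before and at 53.6, 210 and 97.0 CPM at 48, so that replicates 2 and 3 exceeded the range before and replicate 1 did not. Its rise (log2 1.1 ± 0.32; adjusted p 0.0132) was lost without replicate 2 (0.46; adjusted p 0.266) or without replicate 2 or 3 before.

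F11 rose again in old mice at 96, to 111, 107 and 146 CPM, with no overlap (log2 1.11 ± 0.32; adjusted p 0.0331). That call was lost without old before replicate 2 or 3 or any library at 96 (adjusted p up to 0.188). It was at 126, 120 and 107 CPM at 120 and back at 48.8, 58.9 and 55.9 CPM at 240. In young mice F11 was at 104, 156 and 140 CPM before and at 70.6, 88.7 and 94.6 CPM at 48, a lower level that did not pass the test. The ratio of F11 to Klkb1 was between 0.138 and 15.9 over the libraries, with the highest value in replicate 2 of old mice at 48. F12 (factor XII), which starts the contact phase, had the narrowest range of all 40 genes, 361 to 597 CPM, the highest 1.65 times the lowest, and Kng1 (kininogen) ranged from 658 to 1826 CPM, with counts uncertain because of its near copy Kng2.

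Among the vitamin K-dependent clotting enzymes, F7 (factor VII) fell in old mice at 48, from 157, 227 and 212 CPM to 90.9, 35.7 and 148 CPM (log2 -1.12 ± 0.37; adjusted p 0.0301). It was not called without replicate 1 or 2 of that group or without replicate 2 or 3 before (adjusted p up to 0.179). F2 (prothrombin), F9, F10, the cofactor F5 and the factor XIII B subunit (F13b) were called against before in neither age. After F12, F2 had the narrowest range of the 40, with the highest level (1833 CPM) 2.17 times the lowest.

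The anticoagulant Proc (protein C) fell in young mice at 48 and 72 and in old mice at 48. In young mice it was at 724, 733 and 729 CPM before, at 508, 562 and 465 CPM at 48 and at 474, 476 and 598 CPM at 72. The level was 0.702 of that before at 48 (log2 -0.51 ± 0.16; adjusted p 0.0247) and 0.707 at 72 (-0.50 ± 0.16; adjusted p 0.0349), with no overlap. Each call was lost without any young library before, the one at 48 without its replicate 1 or 3 and the one at 72 without its replicate 1 or 2, with adjusted p up to 0.130 and 0.142. In old mice it was at 632, 622 and 668 CPM before and at 515, 284 and 565 CPM at 48 (log2 -0.50 ± 0.16; adjusted p 0.0283). There was no overlap, but without replicate 2 the change was -0.22 (adjusted p 0.271), and the call was also lost without any library before.

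Pros1 (protein S), the cofactor of protein C, went the other way. In old mice it was at 158, 116 and 121 CPM before and at 264, 457 and 170 CPM at 48, with no overlap (2.26-fold; log2 1.18 ± 0.25; adjusted p 0.00143). The call held whichever library was left out, and the change was 0.75 without replicate 2. In young mice Pros1 rose 1.65-fold at 72 (log2 0.72 ± 0.25; adjusted p 0.0454), a call lost in 16 of the 36 fits that left out 1 library (adjusted p up to 0.152). These were the fits without any young library before or at 72, young 96 replicate 2, young 120 or 240 replicate 2 or 3, old before replicate 2, old 72 replicate 2 or 3, old 96 replicate 3 or old 240 replicate 3. Serpinc1 (antithrombin) fell in old mice at 48 from 1044, 930 and 953 CPM to 820, 373 and 794 CPM (log2 -0.56 ± 0.19; adjusted p 0.0338), and changed by -0.25 without replicate 2 (adjusted p 0.284), with the call also lost without any library before. Proz, protein Z (56.1 against 451 and 502 CPM) and Serpind1, heparin cofactor II (36.7 against 425 and 699 CPM) were far lower in replicate 2 of old mice at 48 than in its group and were not called. The genes of fibrinolysis, Plg (plasminogen), Serpinf2 (whose product inhibits plasmin) and Cpb2 (a carboxypeptidase that slows clot lysis), were called against before in neither age.

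In replicate 2 of old mice at 48 the 12 hepatocyte markers summed to 47120 CPM, against 62890 and 61520 CPM in its group, 55330 to 67630 CPM in old mice before and 57020 to 64230 CPM in young mice at 48. The 12 macrophage and monocyte markers summed to 286 CPM there, against 590 and 794 CPM in its group and 809 to 1117 CPM in old mice before. The 7 cholangiocyte markers were at 229.5 CPM, against 87.6 and 74.3 CPM in its group and 42.9 to 82.7 CPM before. The 7 neutrophil markers measured were at 40.3 CPM, against 11.6 and 7.98 CPM in its group and 1.83 to 19.7 CPM before. The 7 platelet markers were at 36.5 CPM, against 16.2 and 5.73 CPM in its group and 15.7 to 21.5 CPM before. None of the markers named so far was at 0 in that library. In the others of its group, Camp was at 0 in both, and Ngp, Pf4 and Gp1bb in 1 each. The 9 T and B cell markers with a row were at 1.42 CPM, against 1.11 and 8.795 CPM in its group and 10.3 to 24.6 CPM before, with 4 of them at 0. The endothelial (680 CPM) and stellate cell (435.5 CPM) markers of that library lay within their ranges in old mice before, 555 to 732 and 345 to 488 CPM. The part of these marker levels in the changes at 48 was not tested.

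In young mice at 72, replicates 1 and 2 also stood apart in their markers. The 10 stellate cell and fibroblast markers were at 918.5 and 972.9 CPM there, against 382.3 CPM in replicate 3 and 332.5 to 469.8 CPM before. Cholangiocyte markers were at 146.6 and 301.9 CPM, against 58.0 CPM in replicate 3 and 56.2 to 65.1 CPM before. Hepatocyte markers were at 43580 and 54340 CPM, against 64530 CPM in replicate 3 and 71010 to 73460 CPM before. None of these markers was at 0 in the libraries at 72. The levels of C1ra and C8g at 72 were lower in replicates 1 and 2 than in replicate 3. Without replicate 1 or without replicate 2, 2 of the 40 genes were called (1 higher and 1 lower in each fit), and without replicate 3 there were 4 (1 higher, 3 lower). Neutrophil markers were at 5.34 to 6.88 CPM at 72, against 1.24 to 2.18 CPM before, and platelet markers at 8.399 to 10.1 CPM, against 13.8 to 15.2 CPM. Macrophage, endothelial and T and B cell markers were at 585 to 683, 459 to 541 and 5.34 to 8.75 CPM, against 601 to 817, 623 to 723 and 7.21 to 13.6 CPM before. The part of these marker levels in the changes at 72 was not tested.

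Old and young mice were compared at each time point and over their average. A single one of the 40 genes, Mbl2, differed at 48, where 11.2% of all genes did. Its level was 590, 533 and 495 CPM in young and at 145, 88.3 and 487 CPM in old libraries, which did not overlap (log2 -1.17 ± 0.35; adjusted p 0.0274). Old replicate 3 lay just under the lowest young library, and the call was lost without replicate 1 or 2 of either age (adjusted p up to 0.175). Without the 12 libraries with Y-linked transcripts Mbl2 was not called (-0.97; adjusted p 0.212) and C8g was, as lower in old mice (-0.90; adjusted p 0.0165), with 8.14% of all genes called. The fit without old replicate 2 (5.01% of all genes called) and the fit of only these 6 libraries called 0 of the 40.

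At the other time points 0 of the 40 genes were called between the ages, against 0.0595% of all genes before, 0% at 72, 0.171% at 96, 0% at 120 and 0.0149% at 240. At an unadjusted p under 0.05 the numbers were 2, 0, 2, 1 and 1, against 928, 653, 1778, 1321 and 661 of all 13436 genes. DESeq2 called 1 of the 40 before and 0 at the others. The share of all genes that DESeq2 called is not given here. F11 had the smallest adjusted p before (0.192). It was at 104, 156 and 140 CPM in young and at 82.7, 52.5 and 33.3 CPM in old libraries, with no overlap (log2 -1.25 ± 0.32). Without the 12 libraries with Y-linked transcripts the difference in F11 before was -1.79 (adjusted p 0.0172), with 0.297% of all genes called, and it was also called without replicate 2 of old mice at 48 (0.0877% of all genes).

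Averaged over the 6 time points, 0 of the 40 genes were called, against 5.98% of all genes. At an unadjusted p under 0.05 there were 6, against 2738 of all 13436 genes, and DESeq2 called 3 of the 40. The median difference was -0.085 over the 40 and 0.0017 over all genes. C8b was closest (log2 -0.86 ± 0.27; adjusted p 0.0615) and was called without old before replicate 1 (-1.2; adjusted p 0.000867) or old 48 replicate 1 (-0.92; adjusted p 0.0466). It was followed by Proc (-0.19 ± 0.067; adjusted p 0.0843) and Klkb1 (-0.50 ± 0.17; adjusted p 0.0866). C8a, C8b and Klkb1 had a lower mean in old mice at 6 of 6 time points (7.5% of the 40, against 4.52% of all genes). Klkb1 and Proc did not overlap between the ages at 4 of 6 (5% of the 40, against 1.32% of all genes at 4 or more). These genes were picked for their values. Without replicate 2 of old mice at 48, 4 of the 40 were called, with 6.2% of all genes: C4bp was higher in old mice (0.31; adjusted p 0.0191), and F11 (-0.43; adjusted p 0.0102), Klkb1 (-0.42; adjusted p 0.0109) and F13b (-0.21; adjusted p 0.0434) were lower. Without the 12 libraries with Y-linked transcripts, C6 (-0.73; adjusted p 0.00646) and C8b (-1.13; adjusted p 0.0121) were lower, with 3.82% of all genes called.

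Whether the change over time differed between the ages was tested by the age by time interaction. It called 0 of the 40 genes, against 2.76% of all genes. At an unadjusted p under 0.05 there were 2, against 1892 of all 13436 genes, and DESeq2 called 1 of the 40. F11 was closest (adjusted p 0.0601). It was called in 5 of the 36 fits that left out 1 library, those without young 72 replicate 3, old before replicate 1 or any 1 of the old libraries at 48, with adjusted p down to 0.0165. DESeq2 and the fit without the 12 libraries with Y-linked transcripts called F11 as well. The differing course of F11 in old and young mice thus did not pass by edgeR on all libraries, but did in these other fits. That 15 genes changed in old and 3 in young mice at 48 is a contrast of counts and was not tested in itself. Without replicate 2 of old mice at 48 the counts were 8 in old and 11 in young mice.

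A list of 56 further genes of these pathways held complement receptors, cell-bound regulators, C1q, tissue factor and the plasminogen activators, and 50 of them passed the filter. Of the 50, 2 changed in young mice at 48 (1 higher, 1 lower; 21.9% of all genes), 6 at 72 (1 higher, 5 lower; 17.4%) and 0 later. In old mice 13 changed at 48 (5 higher, 8 lower), where 24.1% of all genes did. There were 4 at 72 (all lower; 12.4% of all genes), 0 at 96 (6.82%), 1 at 120 (lower; 3.87%) and 0 at 240 (0.156%). At 48 in old mice Thbd (thrombomodulin), Plat (tissue plasminogen activator) and Procr (endothelial protein C receptor) were among the genes that rose. Plat was at 1.78, 24.1 and 1.02 CPM there, with replicate 2 far above the others (log2 3.52 ± 1.01; adjusted p 0.0128). Without that replicate Plat changed by 0.88 (adjusted p 0.588). The log2 change of Procr went from 1.77 ± 0.57 (adjusted p 0.0241) to 0.39 without it (adjusted p 0.657).

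Thbd was at 12.4, 14.3 and 13.7 CPM before and at 62.9, 434 and 32.9 CPM at 48, with no overlap, and its rise remained called without replicate 2 (log2 3.71 ± 0.67 with it and 1.85 ± 0.47 without it; adjusted p 0.000372 and 0.00874). Without that library 4 of the 50 were called in old mice at 48 (3 higher, 1 lower), against 16.8% of all genes. F8 (factor VIII) fell in young mice at 72, from 129, 133 and 195 CPM to 53.7, 52.7 and 62.6 CPM (log2 -1.43 ± 0.41; adjusted p 0.0154). Colec10 (collectin liver 1) fell in old mice at 48 (-1.33 ± 0.39; adjusted p 0.0139), but without replicate 2 it changed by -0.87 and was not called (adjusted p 0.0788). Between the ages on average, 5 of the 50 were called (5.98% of all genes), among them Serpine2 (1.69 ± 0.40; adjusted p 0.0109), Itgb2 (0.57 ± 0.16; adjusted p 0.0357) and Mcfd2 (0.31 ± 0.087; adjusted p 0.0289), all higher in old, and F3 (tissue factor; -0.51 ± 0.12; adjusted p 0.00661), lower in old. Serpine2 was highest in the library with Y-linked transcripts in 11 of 12 groups (0.908% of all genes in 11 or more).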

How the data were processed

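The authors deposited whole-number read counts per gene symbol for each of the 36 liver libraries, and these were used as deposited. Per the labels' protocols, RNA was extracted with Trizol and RNeasy columns from frozen tissue, treated with DNase and made into ribosomal RNA-depleted Zymo-Seq libraries with ERCC spike-ins, whose mix differed between the ages. The submitters' processing notes name Trimmomatic 0.39, STAR 2.7.5b, featureCounts and the GRCm38 build. The strand setting and annotation of the counting are not given in the sources used here. Near-identical copies share reads.

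From the counts, genes with low counts were removed with filterByExpr over the 12 groups, libraries were scaled by TMM, and edgeR 4.0.16 (R 4.3.3) fitted a robust quasi-likelihood model with 1 mean per group to all 36 libraries. P-values were adjusted by Benjamini-Hochberg over 13436 genes within each comparison and called under 0.05. Fold changes are on the log2 scale with their SE. The common biological coefficient of variation was 24.7%. The scripts were tested on simulated data. Gene positions and lengths came from GENCODE M21, and promoter bases from RefSeq.

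The 40 genes, the other lists and the tests were chosen with earlier results of these data known. Values in all libraries were to be given for the called genes with the largest rises and falls (up to 2 each way at 48 and 72 against before, and 3 each way between the ages), and for the 6 other pathway genes with the largest changes over time and the 4 with the largest age differences. Values shown for other genes were chosen after they had been seen. A result that this rule names among the other pathway genes is not reported here. Alternatives were DESeq2 1.42.0, total-count scaling, no filter, a replicate block, a term for Y-linked transcripts, each library left out in turn, and a fit restricted to the groups being compared. A fit without the 12 libraries with Y-linked transcripts was added after seeing the data.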

Additional observations from a re-analysis of the deposited data

How the results depend on the processing

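The number of the 40 genes called moved by more than 1.5 times in 94 of 790 alternatives, and of the calls or differences followed for single genes, 0 of 1405 alternatives reversed a direction. Most of these alternatives left out 1 library, often one outside the comparison, which hardly moves a fold change. The alternatives for the interaction have no direction to reverse. Both totals therefore say little about how firm a result is. The counts that follow are of the 40 genes alone. The share of all genes called moved between fits too, for example from 24.1% to 16.8% in old mice at 48 without replicate 2. Without that share, these counts show only how far the number called moved. In young mice at 48, total-count scaling gave 6, no filter 1, DESeq2 7, the Y-linked term 6, only the groups compared 16 and the fit without the 12 Y-linked libraries 1. In young mice at 72, no filter gave 2 and the fit without the Y-linked libraries 2, and at 120 only the groups compared gave 1. In old mice at 48, only the groups compared gave 0 and the fit without the Y-linked libraries 9. In old mice at 72, total-count scaling gave 2, DESeq2 3, the Y-linked term 3, only the groups compared 0 and the fit without the Y-linked libraries 3. In old mice at 96 total-count scaling gave 4 and only the groups compared 0. In old mice at 120 total-count scaling gave 3, DESeq2 5, the Y-linked term 3, only the groups compared 0 and the fit without the Y-linked libraries 9. Between the ages before, DESeq2 and the fit without the Y-linked libraries gave 1 each, and at 48 DESeq2 gave 2 and only the groups compared 0. For the average of the ages DESeq2 gave 3, the Y-linked term 2 and the fit without the Y-linked libraries 2, and for the interaction DESeq2 and the fit without the Y-linked libraries gave 1 each. Fits of only the groups compared hold fewer libraries. The cause of the moves in any of these fits was not tested.

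Leaving out 1 library at a time gave 0 to 11 calls in young mice at 48, 1 to 7 at 72, and 6 to 20 in old mice at 48, 0 to 4 at 72, 0 to 5 at 96 and 0 to 6 at 120. Between the ages it gave 0 to 1 before, 0 to 8 at 48, 0 to 4 for the average and 0 to 2 for the interaction. Same-numbered libraries of an age deviated together only weakly (mean r 0.0582, from -0.378 to 0.578), against a mean r of -0.0246 for different numbers. The split by Y-linked transcripts weighed more, with a mean r of 0.185 within it and -0.224 across it. Whether the numbers mark a shared batch cannot be told from these values. A replicate block gave 6 calls in young mice at 48, 2 in old mice at 120 and 1 for the average of the ages. With it the calls of Pros1 in young mice at 72 (log2 0.72; adjusted p 0.0510) and C3 in old mice at 120 (0.84; adjusted p 0.0544) were lost, and C8b was called for the average of the ages (-0.88; adjusted p 0.0326). With 3 libraries per group and totals from 2328233 counts, small differences can go uncalled. Overlap of the groups did not decide a call, because the spread was estimated over all groups. Mbl2, C4bp and F11 were called in old mice at 48 against before although their groups overlapped.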
